A study of Saccharomyces cerevisiae with 21 samples.

Results

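The comparison described here sets yeast cells that had been dried, stored dry and then rewetted for 360 min against the growing control cells they came from. It takes the 3 arrays of cells rehydrated for 360 min and the 3 arrays of control cells, 6 of the 21 arrays of a drying and rehydration course in 7 groups of 3. The cells were the diploid laboratory strain BY4743 of budding yeast, Saccharomyces cerevisiae, which in every group lacks working copies of HIS3, LEU2 and URA3. The 360 min cells had been grown in rich glucose medium (YPD) at 30 °C to an A600 of 0.8, moved to YPD diluted 20-fold at 22 to 25 °C, dried in dishes for 42 h, kept at 20% relative humidity for 72 h, and rewetted with the same dilute medium for 6 h, with 4 plates pooled. Control cells had the same growth and the same transfer to dilute medium, and their RNA was taken right after that transfer, before drying. Dry cells, sampled after the 72 h of storage, are given beside them to show what each gene did before water returned. Time in dilute medium, the lower temperature and the drying itself therefore cannot be told apart in these values. The labels do not say whether the 3 replicates were separate cultures. The p-values therefore measure the spread within groups, pooled over all 21 arrays, which may be technical.

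Yeast growing on glucose makes most of its energy by fermentation, devotes much of its transcription to ribosomes and biosynthesis, and keeps genes for other carbon sources switched off. When glucose runs out, those genes are released, and stress-protective, storage and stationary-phase genes are induced while ribosome production is cut. On a return to growth the second state is normally reversed, ribosomal genes and G1 cyclins rise, and starvation genes are shut off. The comparison asks how far the rehydrated cells had gone back to the growing state after 6 h.

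Each array read total RNA with 9275 probe sets other than control sets, covering 5656 genes, and each gene is represented by its brightest probe set. Values below named as signals are the deposited linear intensities of the arrays in replicate order. Differences are 360 min minus control on the scale log2(signal + 17.74) after quantile normalization, with the standard error (SE) of the fit and 3 arrays per group. A gene rose or fell where limma's Benjamini-Hochberg adjusted p was under 0.05 and the change was at least 2-fold. It was within 2-fold where it was not called and the whole 95% interval of the difference lay inside 2-fold, and undecided otherwise.

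The 360 min arrays stood apart from the rest in several technical measures. Their median signal averaged 143.27 ± 2.21 (SD, n = 3), against 172.1 ± 4.24 in control arrays, and their highest signals were 20672.5 to 30741.3, against 5619.1 to 7192.8 in control arrays. Signal from the 3′ end of the control gene ACT1 exceeded that from its 5′ end by 2.71 ± 0.17 (log2, SD, n = 3) at 360 min and by -0.57 ± 0.33 in control cells, and SRB4 and SPT15 moved the same way. A larger 3′ excess is a sign of shorter RNA or shorter labelled copies, and its part in the results was not tested. Hybridization runs were set here from gaps between the recorded hybridization times and are not named in the labels. The 3 control arrays came from run 1 on scan day 1, and the 3 arrays at 360 min from run 6 on day 3. The 3 dry arrays came from runs 2 and 3 on day 2, with an ACT1 3′ excess of 0.94 ± 0.03. Run, day and condition therefore cannot be told apart in any difference between these groups, those from dry cells included.

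**Figure D1:**
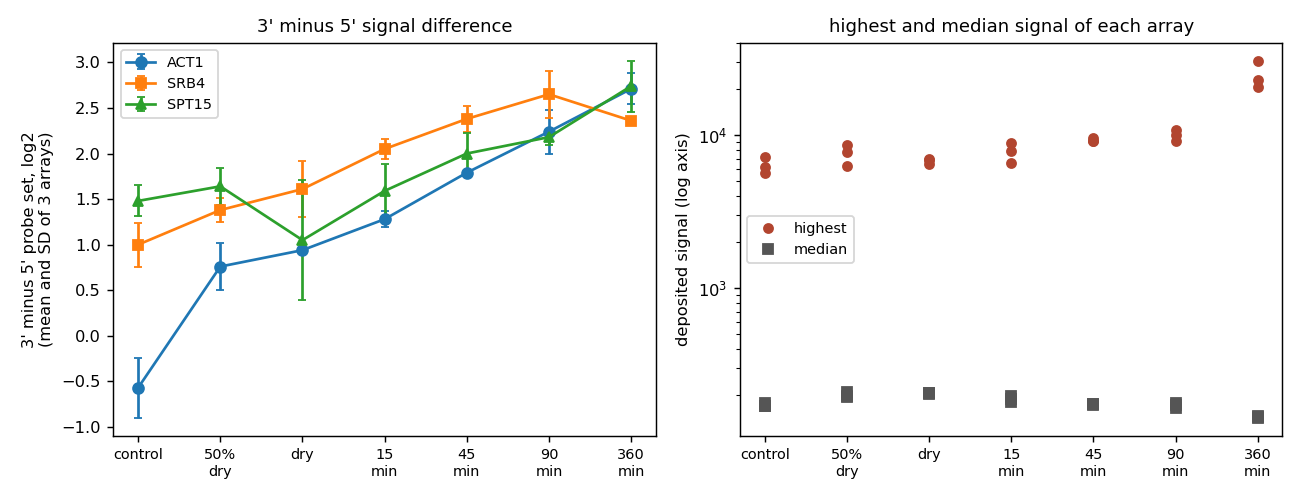
Left, the 3′ minus 5′ signal difference of 3 control genes (log2, mean and SD of 3 arrays); right, the highest and the median deposited signal of each array, on a log axis. The horizontal axis follows the course from control through drying to 360 min of rehydration. ACT1 lies at 2.71 at 360 min and at -0.57 in control cells, and the highest signals of the 360 min arrays, from 20672.5 up, exceed those of every other array.

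Some of the brightest genes had control signals that cannot be taken at face value. In 13 probe sets, among them those of TDH3, ENO2, SSA1, RPP0, RPL21A, ARF1 and CCW12, at least 2 of the 3 control arrays read the recurring value of that array (137.7, 177.6 or 153.1, within 0.3) or a value no higher than 2. CCW12 and RPL17A had the identical triple 137.7, 177.6 and 153.1 in control cells, 4 probe sets shared such a triple with another probe set in control cells, and 0 did in any other group. All 13 were called higher at 360 min. For 3 of the genes another, brighter probe set exists and went down instead of up: RPL17A by -1.91, RPP1B by -1.55 and RPS26A by -0.59, against 3.17, 4.90 and 6.80 in the probe sets with the recurring values. The size of these rises is therefore uncertain, and counts without them are given for glycolysis, ribosomal protein, chaperone and cell wall genes.

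Genes of translation and biosynthesis were mostly still below their control level, and many genes of glucose starvation were still far above it. Of the 9275 probe sets, 1826 (19.7%) were higher and 1987 (21.4%) lower at 360 min than in control cells, while 3660 (39.5%) were within 2-fold and 1802 (19.4%) were undecided. In 70.4% of all probe sets the 3 arrays of one group lay wholly above the 3 of the other, so non-overlap of a single gene is common here. Genes named for the largest changes were also picked among those without overlap, so their non-overlap adds no support. Over the 5656 genes, 1042 (18.4%) rose, 1493 (26.4%) fell, 2225 (39.3%) were within 2-fold and 896 (15.8%) were undecided. The median of all genes was -0.17, and it was -0.34 with the deposited scaling and -0.10 with median-centred arrays. Set against the same control arrays, dry cells had 1228 genes (21.7%) higher, 1168 (20.7%) lower and 2345 (41.5%) within 2-fold. Fewer genes were thus within 2-fold of control after 6 h of rehydration than in dry cells, by counts taken against the same control arrays. Where a gene has several probe sets they did not always share a call. Of 74 such genes whose brightest probe set was higher, 15 had every probe set higher and 13 had one lower. Of 76 whose brightest was lower, 40 had every probe set lower and 7 had one higher. Of 113 whose brightest was within 2-fold, 23 had every probe set within 2-fold and 68 had another one called. For such genes a level near control depends on the probe set.

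**Figure D2:**
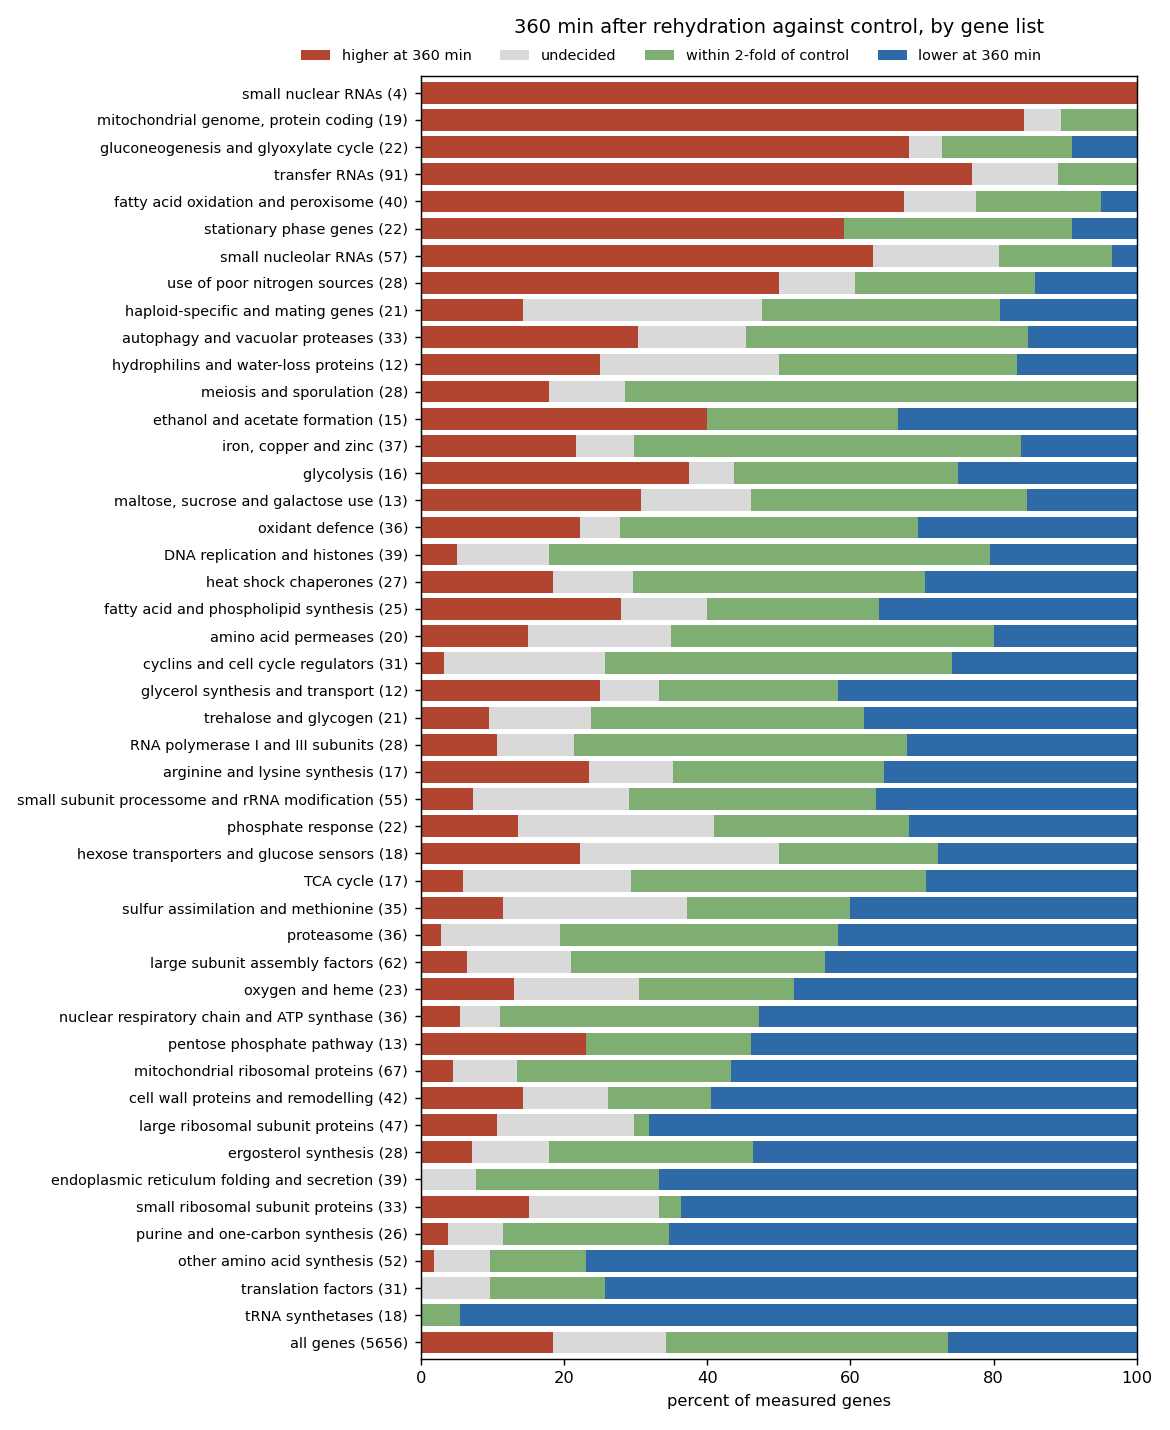
For each gene list (measured genes in brackets), the percent of genes that were higher at 360 min than in control, undecided, within 2-fold of control, or lower; lists are ordered by their median difference, highest at the top, with all genes at the bottom. Genes for gluconeogenesis, fatty acid oxidation and stationary phase are mostly in the higher part, and tRNA synthetases, translation factors and amino acid synthesis mostly in the lower part.

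Among the lists of nuclear protein-coding genes, that for gluconeogenesis and the glyoxylate cycle had the highest median. Of 22 measured genes that build glucose or run the glyoxylate cycle, 15 rose and 2 fell, with a median of 2.77 against -0.17 for all genes, and the median in dry cells was 3.0. MLS1, for malate synthase of the glyoxylate cycle, had signals of 10635.6, 10679.9 and 10109.3 at 360 min, against 72.5, 58.5 and 49.8 in control cells. The groups were far apart, a difference of 6.24 ± 0.17 (SE, adjusted p = 4.01e-16), and in dry cells the difference from control was 6.01. PCK1, for phosphoenolpyruvate carboxykinase, the committed step of gluconeogenesis, had 14940.5, 10836.8 and 14808.0 at 360 min, against 187.3, 176.4 and 163.2 in control cells. All 3 arrays at 360 min lay above all control arrays, by 5.02 ± 0.08. SFC1, the mitochondrial carrier that exchanges succinate for fumarate, was higher by 5.92 ± 0.11 and IDP2, the cytosolic isocitrate dehydrogenase, by 5.13 ± 0.11. FBP1 (4.63), for fructose-1,6-bisphosphatase, the acetate transporter gene ADY2 (5.0), the lactate permease gene JEN1 (4.67), and the regulators CAT8 (3.06) and SIP4 (4.65) also rose. The members that fell were MAE1 (-1.17), for malic enzyme, and the pyruvate carboxylase gene PYC2 (-1.24).

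Fatty acid use followed the same direction. Of 40 measured genes for peroxisomes and fatty acid oxidation, 27 rose and 2 fell, with a median of 1.31, against 1.86 in dry cells. POX1, for the acyl-CoA oxidase that starts the peroxisomal cycle, had signals of 4639.7, 3833.7 and 5024.1 at 360 min, against 73.9, 60.3 and 48.1 in control cells, a rise of 5.48 ± 0.15. The carnitine acetyltransferase gene YAT2 rose by 5.47 ± 0.22, the peroxisomal catalase gene CTA1 by 4.91 ± 0.08, and the carnitine carrier gene CRC1 by 4.63 ± 0.12. FDH1, for formate dehydrogenase, which has a near-identical second copy, had 4192.8, 4468.1 and 4878.4 at 360 min, against 14.5, 3.3 and 4.0 in control cells. The groups did not overlap. Control signals near 0 make the size depend on the added value: the rise was 7.13 ± 0.11, beside 8.11 in dry cells, but 8.74 with 1% of the median added and 5.21 with 50%, with the other probe sets of the gene higher by 1.39 and 4.95. ACS1, for the acetyl-CoA synthetase used on poor carbon sources, was higher by 2.95 ± 0.16.

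Some hexose transporter genes were still low. HXT4, a high-affinity glucose transporter gene, had signals of 47.1, 61.6 and 65.6 at 360 min, against 2058.4, 1791.3 and 1975.5 in control cells. No array at 360 min came near the control arrays, and the difference was -4.57 ± 0.32 (adjusted p = 2.23e-10), beside -5.47 in dry cells. HXT3, a low-affinity transporter gene, fell by 3.87 ± 0.20, HXT1, another one, by 2.09, and the glucose-induced repressor gene MIG2 by 2.27 ± 0.21. HXT5, a transporter gene of slow growth and starvation, was the opposite case, with 7635.4, 7507.5 and 6771.4 at 360 min, against 239.2, 239.8 and 160.1 in control cells. It was 4.28 ± 0.22 higher at 360 min, and 4.3 higher in dry cells. Over the 18 measured transporter and sensor genes, 4 rose, 5 fell, 4 were within 2-fold and 5 were undecided. The shares that rose and fell were near the 18.4% and 26.4% of all genes.

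Glycolysis gave no single direction. Of 16 measured genes, 6 rose, 4 fell, 5 were within 2-fold and 1 was undecided. Their median was -0.04, but 0.87 with the deposited scaling and 1.10 with median-centred arrays, so the direction of the list depends on the scaling. Of the 6 rises, 4 (TDH3, PGK1, ENO1 and ENO2) rest on control signals that varied widely or hold the recurring values, and without such genes 2 rose and 4 fell. TDH3, for glyceraldehyde-3-phosphate dehydrogenase, shows the problem: 21550.9, 6926.4 and 14465.7 at 360 min, against 137.9, 0.0 and 0.1 in control cells. The first steps of the pathway were lower, with the hexokinase gene HXK2 at -2.42 and the phosphofructokinase genes PFK1 and PFK2 at -1.87 and -2.35. ADH2, for the alcohol dehydrogenase that consumes ethanol, had 22496.0, 14684.6 and 18755.9 at 360 min, against 408.2, 421.7 and 383.9 in control cells, a rise of 4.12 ± 0.75. Its level was higher than in dry cells too, by 2.64.

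Genes of water loss and stationary phase split into some that stayed very high and some that did not. SIP18, a hydrophilin gene whose small hydrophilic product is made under water loss, had signals of 5552.0, 5816.2 and 5890.6 at 360 min, against 2.7, 6.3 and 1.8 in control cells. This was the largest rise of any gene, 7.54 ± 0.08 (adjusted p = 2.53e-21), beside 7.5 in dry cells. Its control signals too were near 0, and the rise was 9.58 with 1% of the median added and 5.45 with 50%. GRE1, another hydrophilin gene, had 8042.9, 7403.0 and 6490.1 at 360 min, against 54.1, 52.5 and 41.8 in control cells, a difference of 6.12 ± 0.22. STF2, also a hydrophilin gene, had 1751.5, 2166.1 and 1845.2 at 360 min, against 4400.4, 5718.2 and 5079.3 in control cells, and fell by 1.70 ± 0.17. HSP12, the abundant membrane-associated stress protein, was undecided at 0.42. Over the 12 measured genes of this list 3 rose, 2 fell, 4 were within 2-fold and 3 were undecided. Beside them, 18.4% of all genes rose, 26.4% fell and 39.3% were within 2-fold.

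Of 22 measured stationary-phase genes, 13 rose and 2 fell, and the median was 1.28, against 2.06 in dry cells. SPG1 and SPG4, both needed for survival in stationary phase, rose by 5.55 ± 0.14 and 3.78 ± 0.10, and HBT1, a gene for a substrate of a ubiquitin-like modifier, rose by 3.72 ± 0.11. MSN4, for a general stress transcription factor, fell (-2.29), while its partner MSN2 was within 2-fold at 0.23. Among 27 measured chaperone genes, 5 rose, 8 fell and 11 were within 2-fold, with a median of -0.24. These shares were near those of all genes, of which 18.4% rose, 26.4% fell and 39.3% were within 2-fold. Without SSA1, one of the genes with recurring control signals, 4 rose and 8 fell, with a median of -0.37. SSA3, the Hsp70 gene of starved cells, had signals of 3064.8, 2231.1 and 2344.6 at 360 min, against 42.9, 26.1 and 26 in control cells, a rise of 5.63 ± 0.20. The Hsp70 gene of growing cells, SSA2, fell (-1.76), and the small heat-shock gene HSP26 rose by 2.43 ± 0.08, below its 3.35 in dry cells. HSP30, a plasma membrane heat-shock gene, fell by 2.70 ± 0.09.

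Storage carbohydrate genes were mostly not raised. Among 21 measured genes of trehalose and glycogen, the sugar and the polymer that protect and feed resting yeast, 2 rose and 8 fell, with 8 within 2-fold. The shares over all genes were 18.4% higher, 26.4% lower and 39.3% within 2-fold. TPS1, for trehalose-6-phosphate synthase, was within 2-fold at 0.07, whereas ATH1, for acid trehalase, which breaks trehalose down, rose by 2.24 ± 0.08. GAC1, a targeting subunit of the phosphatase that activates glycogen synthase, had signals of 91.7, 81.3 and 88.0 at 360 min, against 1839.1, 1740.2 and 1748.3 in control cells. It was 3.85 lower on the log2 scale and undecided in dry cells at -0.87, so most of its distance from control appeared after the dry stage (-2.98 at 360 min relative to dry, called lower). Oxidant defence was mixed as well, with 8 of 36 genes higher and 11 lower, shares near the 18.4% and 26.4% of all genes. YHB1, for the nitric oxide-detoxifying flavohaemoglobin, fell by 4.13 ± 0.19 in its brightest probe set and was lower in 3 of 4, and the thioredoxin gene TRX1 fell by 2.57 ± 0.13.

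The protein-synthesis machinery remained below control. Of 47 measured genes for large ribosomal subunit proteins, 32 fell, 5 rose, 1 was within 2-fold and 9 were undecided, with a median of -1.28, against -2.43 in dry cells. Of 33 genes for the small subunit, 21 fell and 5 rose, with a median of -1.38, against -2.02 in dry cells. Genes with scattered signals (SD over 1 at 360 min or in control) or recurring control signals were then left out. Of the rest, 32 of the large-subunit genes fell and 0 rose, and 21 of the small-subunit genes fell and 3 rose. Compared with dry cells directly, 13 large-subunit genes were higher at 360 min and 0 lower, and 11 small-subunit genes were higher and 0 lower, against backgrounds of 8.43% of all genes higher and 14.9% lower. RPL13A had signals of 180.1, 228.3 and 252.1 at 360 min, against 4062.4, 4276.0 and 4230.6 in control cells. It fell by 4.11 ± 0.17 and was within 2-fold of its dry level. Ribosomal protein genes often occur as near-identical pairs, which these probe sets may not separate.

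Enzymes that charge tRNAs and factors that drive translation were lower almost throughout. Of 18 measured tRNA synthetase genes 17 fell and 0 rose, with a median of -2.49, against -3.24 in dry cells. THS1, for threonyl-tRNA synthetase, had signals of 340.1, 442.3 and 429.4 at 360 min, against 4005.6, 4618.0 and 4566.8 in control cells. The gene fell by 3.38 ± 0.19. Of 31 translation factor genes, 23 fell, 0 rose and 5 were within 2-fold, with a median of -1.99, against -1.49 in dry cells. DED1, an RNA helicase gene for scanning by the small subunit, had 100.6, 110.3 and 126.9 at 360 min, against 1917.6, 1796.0 and 2092.7 in control cells. It fell by 3.61 ± 0.13 against control and by 2.81 against dry cells, in which it was undecided at -0.79. RLI1, which separates ribosomal subunits after termination, fell by 4.12 ± 0.14.

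Ribosome assembly was less uniform. In the small subunit processome and rRNA modification list 20 of 55 genes fell, 4 rose and 19 were within 2-fold. Among large subunit assembly factors 27 of 62 fell, 4 rose and 22 were within 2-fold. Over all genes 26.4% fell, 18.4% rose and 39.3% were within 2-fold. NOP1, for the rRNA methyltransferase fibrillarin, fell by 3.18 ± 0.10, and NOP58, a core protein of the same particle, by 2.35 ± 0.15. NOP58 had stood at -4.48 in dry cells and was 2.13 higher at 360 min than there, whereas NOP1 was within 2-fold of its dry level. RPA135, for the second-largest subunit of RNA polymerase I, fell by 2.73 ± 0.19.

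**Figure D3:**
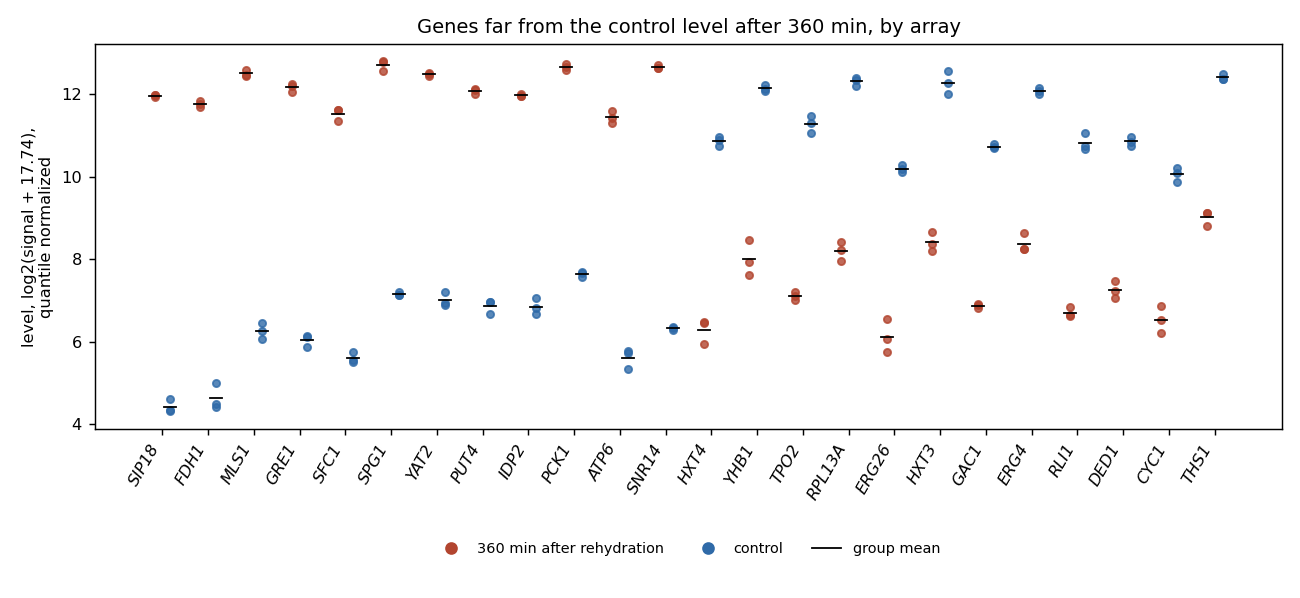
Level of 24 named genes on each array, log2(signal + 17.74) after quantile normalization, with the 3 arrays at 360 min (red) left of the 3 control arrays (blue) and a black bar at each group mean. In the 12 genes on the left every array at 360 min lies above every control array, and in the 12 on the right every one lies below. Genes with such large changes were named only where the groups did not overlap.

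Several biosynthetic pathways that serve growth were also below control, with the arginine and lysine branch divided. Of 52 measured genes of amino acid synthesis other than the sulfur, arginine and lysine branches, 40 fell and 1 rose, with a median of -1.82, against -1.64 in dry cells. ASN1, for asparagine synthetase, had signals of 238.1, 370.2 and 348.7 at 360 min, against 3917.3, 4291.7 and 3874.0 in control cells, a fall of 3.52 ± 0.24. The single rise was GDH3, the glutamate dehydrogenase gene of ethanol and stationary growth, with 21104.1, 13410.9 and 15144.7 at 360 min, against 160.9, 185.6 and 143.2 in control cells. In sulfur assimilation and methionine synthesis 14 of 35 genes fell and 4 rose, with a median of -0.77, SAM1, for S-adenosylmethionine synthetase, at -3.42 ± 0.12 and MET30, a ubiquitin ligase subunit gene that restrains the pathway, at 3.46 ± 0.09. In arginine and lysine synthesis 6 of 17 fell and 4 rose, with a median of -0.60, beside 26.4% of all genes lower and 18.4% higher. ARG3, for ornithine carbamoyltransferase, rose by 4.20 ± 0.17 from dim control signals (4.88 with 1% of the median added, 2.88 with 50%). In purine and one-carbon synthesis 17 of 26 genes fell and 1 rose, with PRS4, for phosphoribosyl pyrophosphate synthetase, at -3.04 ± 0.13.

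Genes for sterols, secretion and the cell wall were more often lower than higher, and those for fatty acids and phospholipids were divided. In ergosterol synthesis, the fungal sterol pathway, 15 of 28 genes fell and 2 rose, and ERG26, for a C-3 sterol dehydrogenase, was lowest, with 52.1, 66.3 and 38.9 at 360 min, against 1273.0, 1301.9 and 1160.8 in control cells (-4.07 ± 0.18). In fatty acid and phospholipid synthesis 7 of 25 genes rose and 9 fell, with a median of -0.28, beside 18.4% of all genes higher and 26.4% lower. INO1, for inositol-3-phosphate synthase, was at 3.91 ± 0.14 and ELO1, a fatty acid elongase gene, at -2.85 ± 0.09. HEM13, the oxygen-regulated coproporphyrinogen oxidase gene of heme synthesis, fell, with signals of 7.4, 5.9 and 10.6 at 360 min, against 462.4, 464.4 and 470.2 in control cells. Its signals at 360 min were near 0, so the size depends on the added value: -4.28 ± 0.18, but -5.73 with 1% of the median added and -2.54 with 50%. For endoplasmic reticulum folding and secretion 26 of 39 genes fell and 0 rose, including PMT4, a protein O-mannosyltransferase gene (-2.57 ± 0.13). Among 42 cell wall genes 25 fell and 6 rose. Without 3 genes with scattered signals at 360 min or in control, or recurring control signals, CCW12 among them, 25 fell and 4 rose. The glucan-remodelling genes GAS3 and GAS5 stood at -3.59 ± 0.15 and -3.34 ± 0.20. Against dry cells, 13 of these cell wall genes were higher and 3 lower. TPO2, a polyamine exporter gene, fell by 4.17 ± 0.24 and SFK1, a plasma membrane protein gene, by 4.61 ± 0.21.

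Genes for using poor nitrogen sources were often still raised, while amino acid permease genes as a list were not. Of 28 measured genes for using poor nitrogen sources 14 rose and 4 fell, with a median of 0.94, against 0.90 in dry cells. PUT4, the proline permease gene, had signals of 6927.4, 5953.0 and 7079.1 at 360 min, against 107.1, 82.1 and 104.8 in control cells, a rise of 5.21 ± 0.11. MEP2, for a high-affinity ammonium transporter, rose by 3.48 ± 0.09, PUT1, for proline oxidase, by 3.09 ± 0.12 and GAP1, the general amino acid permease gene, by 2.65 ± 0.16. Of the 20 measured amino acid permease genes, which include PUT4 and GAP1, 3 rose, 4 fell and 9 were within 2-fold, with a median of -0.31, beside 18.4% of all genes higher. HIP1, the histidine permease gene, fell by 1.33 ± 0.16. In autophagy and vacuolar proteolysis, which recycle cell contents during starvation, 10 of 33 genes rose and 5 fell at 360 min, against 19 higher and 1 lower when dry. Over all genes 18.4% were higher and 26.4% lower at 360 min, against 21.7% and 20.7% when dry. ATG11, a scaffold gene for selective autophagy, was still 3.71 ± 0.12 above control. ATG1, for the kinase that starts autophagy, is described among the genes near control.

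Mitochondrial and proteasome genes of the nucleus had a different course: many were near control when dry and below it at 360 min. Of 36 nuclear genes encoding respiratory-chain or ATP synthase subunits, 19 fell, 2 rose and 13 were within 2-fold at 360 min, with a median of -1.14. In dry cells 24 of them were within 2-fold of control, and the median was 0.53. Tested directly against dry cells, 19 of the 36 were lower at 360 min and 0 higher, beside 14.9% of all genes lower. RIP1, the Rieske iron-sulfur subunit gene of complex III, had signals of 359.8, 406.1 and 323.4 at 360 min, against 2679.8, 2683.6 and 2744.6 in control cells. It fell by 2.52 ± 0.11 against control, although in dry cells it was within 2-fold at 0.67. The cytochrome c genes CYC1 and CYC7 fell by 3.52 ± 0.15 and 4.08 ± 0.22. NDE2, an external NADH dehydrogenase gene, was an exception, with 10051.4, 9085.5 and 9507.1 at 360 min, against 200.7, 244.7 and 194.1 in control cells. It was 4.51 ± 0.14 higher.

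Other mitochondrial lists and the proteasome also had lower medians at 360 min than when dry. Among 67 mitochondrial ribosomal protein genes 38 fell and 3 rose, with a median of -1.25, against -0.58 in dry cells, where 20 were already below control. Against dry cells 10 were lower, the same 14.9% as among all genes, and 0 higher. In the TCA cycle 5 of 17 genes fell and 1 rose, a share of falls near the 26.4% of all genes, with a median of -0.76, against 0.29 in dry cells. IDH2, a subunit of the NAD-dependent isocitrate dehydrogenase, fell by 2.71 ± 0.14, and the rise was CIT3, a minor mitochondrial citrate synthase gene (5.03 ± 0.18). Of 36 proteasome genes, whose products degrade ubiquitin-marked proteins, 15 fell and 1 rose, with a median of -0.84, against 0.12 in dry cells, where 28 were within 2-fold. RPN1, a base subunit gene, had 289.3, 289.6 and 287.6 at 360 min, against 1452.5, 1290.9 and 1334.8 in control cells (-1.73 ± 0.08). The exception was BLM10, an alternative activator gene, which rose by 2.91 ± 0.14 in its brightest probe set and was within 2-fold in the other (0.49).

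**Figure D4:**
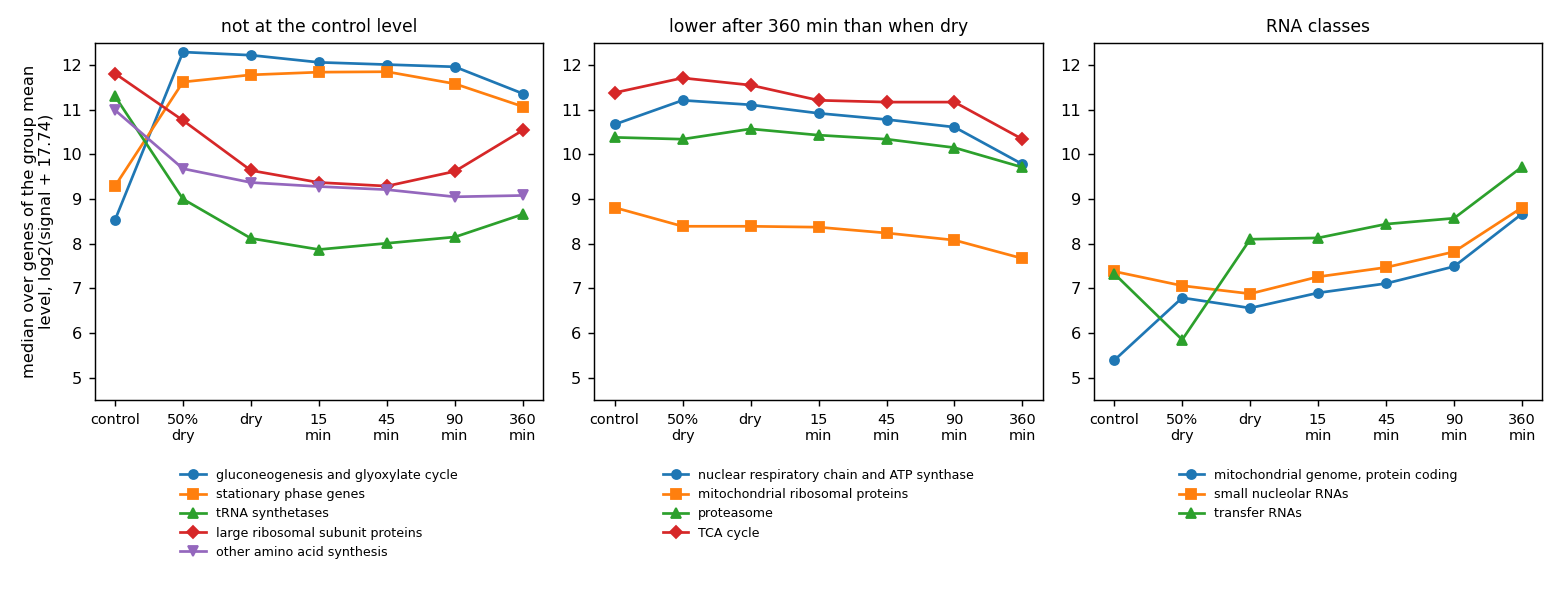
Median level over the measured genes of 12 lists in each of the 7 groups, log2(signal + 17.74), in the order of the course. On the left, gluconeogenesis and stationary-phase genes stay above control and ribosomal, tRNA synthetase and amino acid genes below it up to 360 min; in the middle, 4 lists are lowest at 360 min; on the right, 3 RNA classes are highest at 360 min.

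RNAs encoded by the mitochondrial genome moved opposite to the nuclear genes of the same complexes. Of 19 measured mitochondrial protein-coding and intron-encoded genes, a group set up after the data had been seen, 16 rose and 0 fell, with a median of 2.77, against 0.61 in dry cells, and 17 were higher than in dry cells. ATP6, for a membrane subunit of ATP synthase, had signals of 2588.0, 3627.0 and 3034.3 at 360 min, against 23.6, 36.1 and 37.5 in control cells. All arrays at 360 min were higher, a difference of 5.82 ± 0.37 (adjusted p = 7.49e-11). COB, for cytochrome b, rose by 4.47 ± 0.21, and COX3, a core subunit of cytochrome oxidase, by 2.63 ± 0.14 after being within 2-fold at 0.37 in dry cells. These transcripts carry no stable poly(A) tail in yeast, and the labels do not say how the labelled copies were primed.

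Other RNAs without a standard poly(A) tail were raised too, in groups likewise set up after the data had been seen. Among 91 measured tRNA genes 70 rose and 0 fell, with a median of 2.29, against 0.71 in dry cells, where 39 were already higher. Among 57 small nucleolar RNA genes 36 rose and 2 fell, with a median of 1.19, against -0.54 in dry cells. Compared directly with dry cells, 53 of the 57 were higher and 0 lower. SNR14, the U4 RNA of the spliceosome, had signals of 14517.2, 11256.8 and 14736.0 at 360 min, against 66.8, 59.4 and 61.6 in control cells, a difference of 6.34 ± 0.08. The other spliceosomal RNAs, SNR6 (U6), SNR7-L (U5) and SNR19 (U1), rose by 4.69 ± 0.11, 6.20 ± 0.11 and 3.29 ± 0.12. The SNR7-L value rests on dim control signals and was 6.83 with 1% of the median added and 4.86 with 50%. All 4 spliceosomal RNAs were already higher in dry cells, with a median of 4.01, against 5.44 at 360 min. RDN5-1, the 5S rRNA, went the other way, with 1.7, 1.2 and 15.1 at 360 min, against 354.4, 584.0 and 375.9 in control cells, though its other probe set was within 2-fold (-0.44). Over the 5467 nuclear protein-coding genes alone, 908 rose and 1489 fell, with a median of -0.22.

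Part of the cell division programme was within 2-fold of control, as were 39.3% of all genes. Of 31 measured cyclin and cell cycle regulator genes, 15 were within 2-fold, 8 fell, 1 rose and 7 were undecided, and of 39 DNA replication and histone genes 24 were within 2-fold, 8 fell and 2 rose. In dry cells 14 and 19 of them had been within 2-fold. CLN2, for a G1 cyclin that commits cells to division, had signals of 119.5, 109.6 and 92.5 at 360 min, against 172.5, 166.8 and 174.4 in control cells. It had been 3.18 below control in dry cells, and at 360 min the difference was -0.43, with an interval of -0.93 to 0.07, although all 3 arrays were lower than the control arrays. CLN1 (-0.54), PCL1 (-0.03) and SWI4 (-0.02), all of the G1 programme, were also within 2-fold. The mitotic genes CLB2 (-2.57), CLB1 (-1.65) and SWI5 (-1.50), the G1 cyclin gene CLN3 (-1.47) and the histone genes HTB1 (-1.86) and HTB2 (-2.0) were lower. BUD9, which marks bud sites in diploid cells, was within 2-fold at -0.34, against -2.52 in dry cells.

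Several genes that drying had raised were near control. ATG1 had signals of 273.9, 238.0 and 245.8 at 360 min, against 298.7, 279.1 and 276.1 in control cells. Its difference was 0.11, with an interval of -0.13 to 0.36, against 2.62 in dry cells. RIM4, a translational repressor gene of meiosis, was at 0.28 (-0.09 to 0.66) after 2.65 in dry cells, and IME1, the master regulator of meiosis, at -0.26 (-0.66 to 0.14) after 2.13. RTN2, for an endoplasmic reticulum-shaping protein, was at 0.07 (-0.16 to 0.30) after 2.54, and PMA2, a minor plasma membrane proton pump gene, at 0.28 (-0.08 to 0.65) after 2.42. SDH8, an assembly factor gene for succinate dehydrogenase, was at -0.51 (-0.72 to -0.29) after 2.38. The meiosis and sporulation list was dim, with a median level of 5.23 in control cells and 5.43 at 360 min. At such levels the added value shrinks differences, so falls are hard to see. In dry cells 11 of its 28 genes were within 2-fold and 8 higher. At 360 min 20 were within 2-fold, 5 rose and 0 fell, beside 39.3% of all genes within 2-fold and 18.4% higher. The largest of those rises was SPS100, a spore wall gene, with 10068.6, 8156.8 and 8360.3 at 360 min, against 90.6, 98.2 and 97.0 in control cells.

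**Figure D5:**
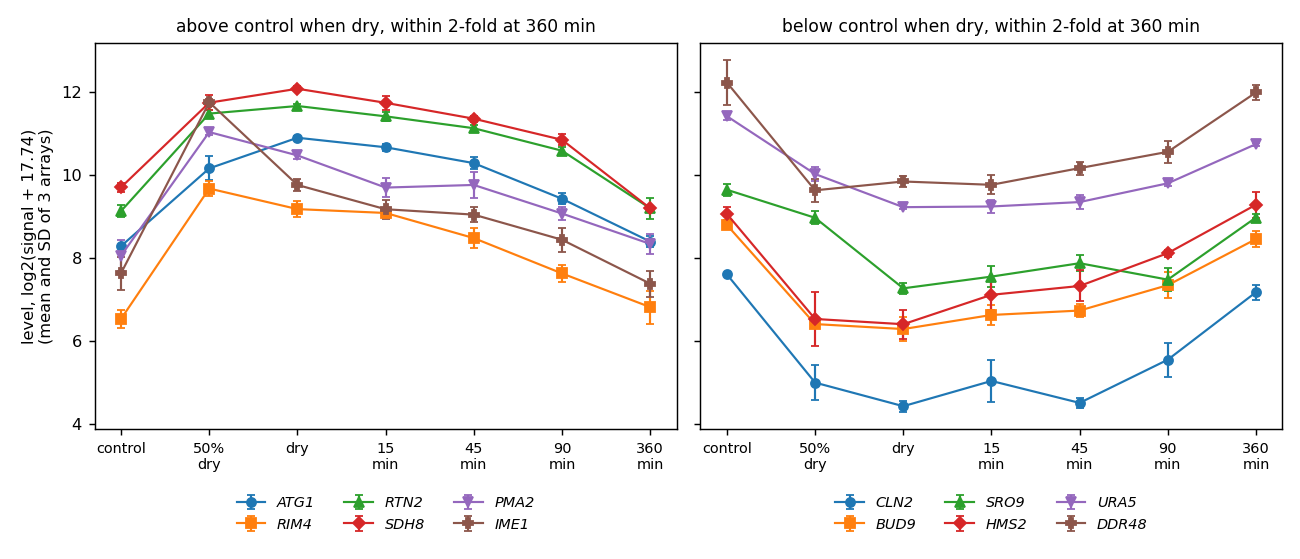
Level of 12 genes in the 7 groups, log2(signal + 17.74), mean and SD of 3 arrays, in the order of the course. The 6 genes on the left were above control in dry cells and the 6 on the right below it, and all 12 were within 2-fold of control at 360 min.

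Genes that drying had lowered and that were near control again included HMS2 (0.22, interval -0.35 to 0.80), a gene for a protein resembling heat-shock factors, and SRO9 (-0.67, interval -0.99 to -0.36), for an RNA-binding protein of translation. DDR48, a stress-responsive gene that here was low in dried cells, had signals of 6324.6, 4754.7 and 7550.3 at 360 min, against 4225.2, 5356.6 and 3029.8 in control cells. The arrays overlapped, and its difference was -0.24 after -2.39 in dry cells, but 0.57 with the deposited scaling, and its other probe set was lower (-1.20). URA5, for orotate phosphoribosyltransferase of pyrimidine synthesis, was at -0.68 (-0.88 to -0.47) after -2.20.

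A few genes crossed the control level between the dry stage and 360 min. PET20, a gene for respiratory growth, was 1.04 above control when dry and had signals of 109.7, 119.5 and 113.2 at 360 min, against 576.7, 610.7 and 478.3 in control cells (-1.88 ± 0.09). YRO2, a plasma membrane protein gene, was at 1.25 when dry and fell by 1.47 ± 0.25 at 360 min. In the upward direction SNR56, a small nucleolar RNA, stood at -1.17 when dry and at 1.47 ± 0.20 after 360 min. Others moved only late. CDC39, the scaffold gene of the CCR4-NOT deadenylase complex, was within 2-fold in dry cells (0.65). At 360 min it fell by 2.61 ± 0.17 in its brightest probe set and was lower in 6 of its 9. Its next brightest probe set, however, was within 2-fold of control (0.22). MET13, for a methylenetetrahydrofolate reductase, was at 0.32 in dry cells and fell by 2.42 ± 0.12. RFU1, an inhibitor gene of a ubiquitin protease, was at 0.64 in dry cells and rose by 2.76 ± 0.15.

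The markers of the strain and of ploidy were as follows. URA3 gave signals of 3.9, 1.9 and 1.9 at 360 min, against 4.1, 2.9 and 1.3 in control cells, near the bottom of the arrays in both groups. LEU2 was dim, with 29.4, 7.0 and 24.2 at 360 min, against 75.1, 89.9 and 107.5 in control cells, and HIS3 gave clear signal in both groups, 301.6, 258.4 and 244.0 at 360 min, against 874.5, 829.9 and 806.0 in control cells. A HIS3 probe set can read a transcript that the deletion leaves in part. Among 21 genes specific to haploid and mating cells, which a diploid keeps low, 3 rose, 4 fell, 7 were within 2-fold and 7 were undecided. Of all genes, 18.4% rose, 26.4% fell and 39.3% were within 2-fold.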

How the data were processed

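Total RNA was measured on 21 arrays, and the deposited table holds linear probe-set intensity. Per the labels' protocols, the authors analysed images in Affymetrix's GeneChip software, then used a signed rank test (Wilcoxon) and a linear mixed model in a pair of steps. Neither the version, nor the scaling, nor a genome build is given in the sources used here. With 2% trimmed, the mean signal was 499.8 to 499.9 on every array, while medians ran from 141.2 to 207.3. Because that range (46.8%) exceeded 5%, signals were quantile normalized on the scale log2(signal + 17.74), with 10% of the overall median (177.4) added. No sample was dropped or imputed, and precision is limited by 3 arrays per group.

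limma 3.58.1 (R 4.3.3) fitted group means over all 21 arrays with a trend (14 residual and 4 prior degrees of freedom), and p-values were adjusted by Benjamini-Hochberg over 9275 probe sets. Of these, 6504 named 1 gene through the platform annotation and RefSeq symbols, 328 several and 2443 none. The fit was tested on simulated data. The 42 gene lists (1216 of 1319 genes measured), the comparison and the tests were chosen with earlier results of these data known, so lists are described by counts and medians, without tests. Genes were named by rule: the 15 largest rises and falls, the 2 to 4 largest called members of lists with at least 1/3 of members called, 10 genes near control from above and from below, 5 crossing each way and 5 changing late each way, and the strain's deleted genes; other list members named with a difference alone were chosen after their values were seen. Same-numbered arrays did not deviate together. Tables and plots used pandas 2.3.3 with numpy 2.4.6 in Python 3.11.15, and matplotlib 3.10.9.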

Additional observations from a re-analysis of the deposited data

How the results depend on the processing

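With 3 arrays per group and 1 hybridization run per condition, no alternative separates condition from run. The numbers of probe sets higher, lower and within 2-fold stayed within 1.5 times 1826, 1987 and 3660 except as follows. Within 2-fold, 2363 remained with 1% of the median added and 5696 with 50% added, since the added value shrinks differences of dim probe sets. Without a fold minimum 3184 were higher and 3378 lower. Over the 6291 probe sets of nuclear protein-coding genes, chosen after seeing the data, 1005 were higher and 1753 lower. Leaving out each array in turn gave 1819 to 1860 higher, 1970 to 2002 lower and 3322 to 3504 within 2-fold. Replicate numbers did not pair the arrays (same-number correlations of deviations 0.001, -0.011 and 0.017). With the replicate block 1828 were higher, 1987 lower and 3632 within 2-fold, and 273 other results kept direction and side of the threshold. Fewer of these 273 counted as unchanged under other settings: 231 with the deposited scaling and 246 with median-centred arrays. The number was 237 with 50% of the median added and 256 with 1%. Only part of the called genes was followed through the settings, and none of those changed sign. Among them LDO45, EXG2, SNR48, FUS3, RME1, SNT309, VPS60, LEU2 and SNR67 lost their call under at least 1 setting. The list medians of glycolysis and of ethanol and acetate formation (0.09) depended on scaling: the second was 1.21 with the deposited scaling and 1.44 with median-centred arrays. The cause was not tested.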
